A study of Bos taurus with 6 samples.

Results

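ITGA4, ITGB3 and ICAM3 are 3 genes of leukocyte and platelet adhesion, and the deposited table measured each with 1 probe set, 3 of its 12763, for 3 of the 6337 genes named in it. They were chosen by name, as every probe set whose platform annotation gives exactly 1 gene symbol and that symbol is ITGA4, ITGB3 or ICAM3. The names were chosen with earlier results of these data known, so the places of these genes among others are description, not evidence. The annotation ties ITGA4 and ICAM3 to RefSeq transcripts of these genes and ITGB3 to a GenBank sequence that is not among them. Their NCBI gene numbers are 282882 for ITGA4, 282642 for ITGB3 and 281840 for ICAM3. The samples were white blood cells of female Sanhe heifers, a Chinese dual-purpose cattle breed. Arrays 1, 2 and 3 came after cold, which the labels describe as 3 hours outdoors at -32 °C and then 15 hours in a cowshed at 5 °C, and arrays 4, 5 and 6 came before cold. All animals shared a cowshed and a mixed ration, and no genotype or age in years is given in the sources used here. The 6 samples came from 3 of 30 heifers, each bled at both times, but the labels do not say which samples share an animal.

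Integrins are cell surface receptors made of an alpha and a beta chain, and they let blood cells hold on to other cells and to matrix proteins. ITGA4 encodes the alpha4 chain, which pairs with the beta1 chain (ITGB1) to bind VCAM-1 and fibronectin and with the beta7 chain (ITGB7) to bind MAdCAM-1, and in other mammals it is known for the capture of lymphocytes, monocytes and eosinophils on vessel walls. ITGB3 encodes the beta3 chain, which pairs with ITGA2B on platelets as the fibrinogen receptor and with ITGAV on many cells as the vitronectin receptor. ICAM3 is an immunoglobulin-family ligand carried by resting leukocytes in humans, where it binds the integrin LFA-1 (ITGAL with ITGB2) and the lectin CD209.

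None of the 3 genes passed the threshold for a change after cold. The means of ITGA4 and ITGB3 were lower after cold and that of ICAM3 was higher, each by an amount near its standard error. Values are the log2 of the deposited intensities. In limma, 0 of 3 members and 0 of 12763 probe sets (0%) had an adjusted p under 0.05. Before adjustment 63 probe sets (0.494%) had a p under 0.05, and none of the 3 was among them. That count was 5 without after 3 and 1787 without after 2. The groups overlapped for all 3 members, and over all probe sets they did not overlap in 4.38%. Median array intensities were 7.25 to 7.49 after cold and 7.36 to 7.44 before on the log2 scale. Lower quartiles differed more, from 5.87 on after 3 to 6.30 on after 2, with 6.08 to 6.24 before cold.

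The arrays did not separate by group. The after 2 and before 6 arrays were nearly alike, with a Pearson correlation of 0.995 across probe sets and 4 probe sets more than 2-fold apart, whereas after 2 and after 3 correlated at 0.874 with 4867 probe sets more than 2-fold apart. The largest principal component (68.4% of the variance) set after 2 and before 6, with scores of 52.1 and 52.0, apart from after 3, with -63.2. Each member is therefore given also without after 2 and before 6. These samples come from a mixture of cells, in which fewer cells of a type and less RNA per cell cannot be told apart. Of 10 general leukocyte markers 9 were measured, and PTPRC, which encodes the leukocyte common antigen CD45, was at 11.19 to 12.38 after cold and 11.32 to 12.38 before. Although the tissue is labelled as white blood cells, RNA of red cells and platelets was measured too, with the beta-globin gene HBB at 11.87 to 12.25 after cold and 11.72 to 12.23 before, and PF4, a chemokine of platelet granules, at 12.42 to 12.64 after cold and 12.49 to 12.78 before.

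ITGA4 had log2 intensities of 5.34, 6.59 and 5.76 after cold, against 5.82, 6.04 and 7.16 before. The before 6 array was the highest and after 2 the second, and the groups overlapped because after 2 lay above before 4 and before 5. On the linear scale the intensities were 40.5, 96.3 and 54.0 after cold and 56.3, 65.8 and 143 before. The group means were 5.89 ± 0.64 after cold and 6.34 ± 0.72 before (SD over the 3 arrays of a group). The difference was -0.44 ± 0.45 (SE), a 1.36-fold lower mean after cold, with a 95% interval of -1.48 to 0.59 (limma, adjusted p = 1.00). An interval this wide holds both no change and a change of more than 2-fold downward. The exact permutation test gave a two-sided p of 0.5, where 3 arrays against 3 cannot give less than 0.1.

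A few arrays set the size of the ITGA4 difference. Without before 6 it was -0.03, and without after 2 it was -0.79, with adjusted p-values of 1.00 and 0.404 in limma. Without both it was -0.38 ± 0.27 (SE). ITGA4 varied more inside its groups than most probe sets, with a within-group SD of 0.68 where the median over all probe sets was 0.42. Its mean intensity lay among the dimmest 25% of probe sets, and how much of its signal was background was not tested.

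**Figure D1:**
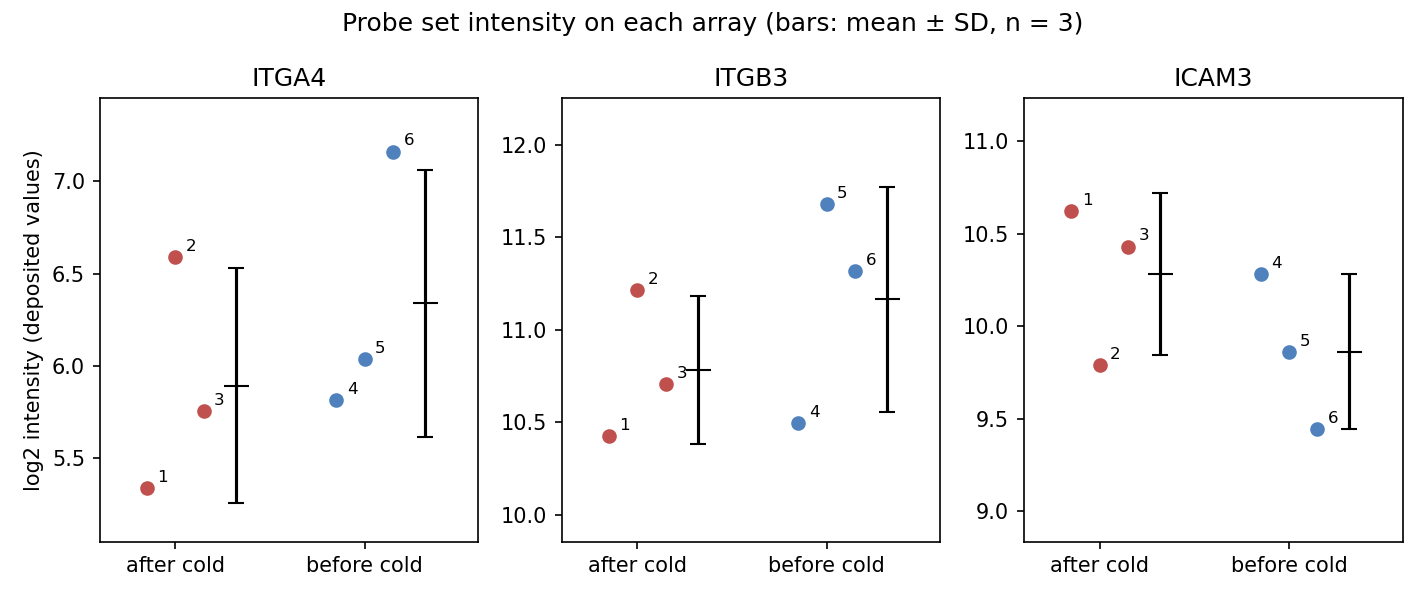
Log2 intensity of the ITGA4, ITGB3 and ICAM3 probe sets on each array, after cold on the left and before cold on the right. Numbers beside points are the sample numbers, bars show the group mean ± SD (n = 3), and every panel spans the same number of log2 units. In each panel the 2 groups overlap.

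ITGB3 had log2 intensities of 10.42, 11.21 and 10.71 after cold, against 10.49, 11.68 and 11.32 before. The before 5 and before 6 arrays were above all arrays after cold, but before 4 lay below after 2 and after 3. On the linear scale the intensities were 1374, 2375 and 1671 after cold and 1441, 3281 and 2549 before. The means were 10.78 ± 0.40 after cold and 11.16 ± 0.61 before (SD, 3 arrays each). The difference was -0.38 ± 0.37 (SE), a 1.30-fold lower mean after cold, with a 95% interval of -1.24 to 0.47 (limma, adjusted p = 1.00). The exact permutation test gave a two-sided p of 0.4.

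Here the before 4 and before 5 arrays mattered most. The difference was -0.72 without before 4 and -0.12 without before 5, and -0.52 ± 0.41 (SE) without after 2 and before 6. Unlike ITGA4, ITGB3 was bright, with a mean intensity above that of 96.0% of probe sets.

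Since ITGB3 is abundant on platelets, platelet markers are given beside it. Of 19 listed markers 5 were measured, with 3 higher and 2 lower means after cold and a median change of 0.06. They were PF4, F13A1, GNG11, CLU and SELP, and ITGA2B, which encodes the platelet partner of beta3, is not analysed here. Their summed intensity ran from 12887 to 19833 after cold and from 14343 to 19813 before. The median deviation of the 5 from their means was 0.07, -0.48 and 0.55 on the arrays after cold and 0.04, 0.50 and -0.31 before. Thus ITGB3 was above its own mean on after 2 and before 6, where these markers were below theirs, and both were above their means on before 5. PF4 differed by -0.10 ± 0.24 (SE). The dimmest of the 5, SELP (P-selectin), was at 6.12 to 7.48 after cold and 5.90 to 7.43 before. Their part in the ITGB3 values was not tested.

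ICAM3 had log2 intensities of 10.62, 9.79 and 10.43 after cold, against 10.28, 9.86 and 9.44 before. The after 1 and after 3 arrays were above all arrays before cold, and after 2 lay below before 4 and before 5. On the linear scale the intensities were 1578, 885 and 1380 after cold and 1245, 930 and 697 before. The means were 10.28 ± 0.44 after cold and 9.86 ± 0.42 before (SD, 3 arrays each). The difference was 0.42 ± 0.34 (SE), a 1.34-fold higher mean after cold, with a 95% interval of -0.35 to 1.19 (limma, adjusted p = 1.00). The exact permutation test gave a two-sided p of 0.3.

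Without before 6 the ICAM3 difference was 0.21, without after 2 it was 0.67, and without both it was 0.46 ± 0.27 (SE). Differences upward were small in this table. A higher mean after cold by at least as much as that of ICAM3 was seen in 230 probe sets, or 1.80%, whereas 1649 (12.9%) had a mean lower by at least as much as that of ITGA4 and 2031 (15.9%) by at least as much as that of ITGB3. In the whole table means were higher after cold for 52.4% of probe sets and lower for 47.6%. A change of at least 1.5-fold was reached by none of the 3 members, against 0.227% of all probe sets upward and 6.81% downward.

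The 3 genes ordered the arrays in related ways, but a shared direction was common in the table. Their Pearson correlations with the largest principal component were 0.82 for ITGA4, 0.43 for ITGB3 and -0.79 for ICAM3. The median absolute correlation over all probe sets was 0.83, so none of the 3 followed it more than the median probe set. ITGA4 was highest on before 6 and lowest on after 1, while ICAM3 was highest on after 1 and lowest on before 6. Both integrin genes had their lowest value on after 1, and their 3 highest values were on after 2, before 5 and before 6. ICAM3 was at its 2 lowest values on after 2 and before 6. The after 2 and before 6 arrays, the pair most alike across the table, were next to each other in the order of each gene. In value they differed by -0.57 for ITGA4, -0.10 for ITGB3 and 0.35 for ICAM3, after minus before. The part of their likeness in the group differences was not tested.

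Each animal contributed a sample to both groups, so the differences within animals are among the 9 possible differences of an array after cold and one before. For ITGA4, 7 of the 9 were negative, from -1.82 to 0.77. For ITGB3 also 7 of 9 were negative, from -1.26 to 0.72, and for ICAM3 7 of 9 were positive, from -0.49 to 1.18. There are 6 ways to match the samples into 3 animals. With the matching as a block in limma, the differences keep their size and only their errors change. The SE ran from 0.15 to 0.48 for ITGA4, from 0.22 to 0.46 for ITGB3 and from 0.15 to 0.43 for ICAM3, and the adjusted p from 0.492 to 1.00, 0.502 to 1.00 and 0.492 to 1.00.

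The matching of 1-4, 2-6 and 3-5 gave the smallest errors. Under it ITGA4 differed within the supposed animals by -0.48, -0.57 and -0.28 and ICAM3 by 0.34, 0.35 and 0.57, so that the 3 differences of each gene had the same sign. ITGB3 differed by -0.07, -0.10 and -0.97. The unadjusted p-values of that fit were 0.0246 for ITGA4, 0.125 for ITGB3 and 0.0297 for ICAM3 (limma), and 1168 of all probe sets had one under 0.05. The matching of 1-5, 2-6 and 3-4 also gave differences of a single sign for ITGA4 and ICAM3, with unadjusted p-values of 0.0859 and 0.0970 in limma. The other 4 matchings gave mixed signs for both genes, with unadjusted p-values of 0.363 to 0.383 for ITGA4 and 0.300 to 0.357 for ICAM3. Which matching is true is not stated, and choosing one by its small errors is no evidence for it. The matching of 1-4, 2-6 and 3-5 joins after 2 with before 6, the arrays most alike across the table. It also joins the next most alike, after 1 and before 4, with a Pearson correlation of 0.986 and 107 probe sets more than 2-fold apart. The part of this likeness in the small errors was not tested.

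**Figure D2:**
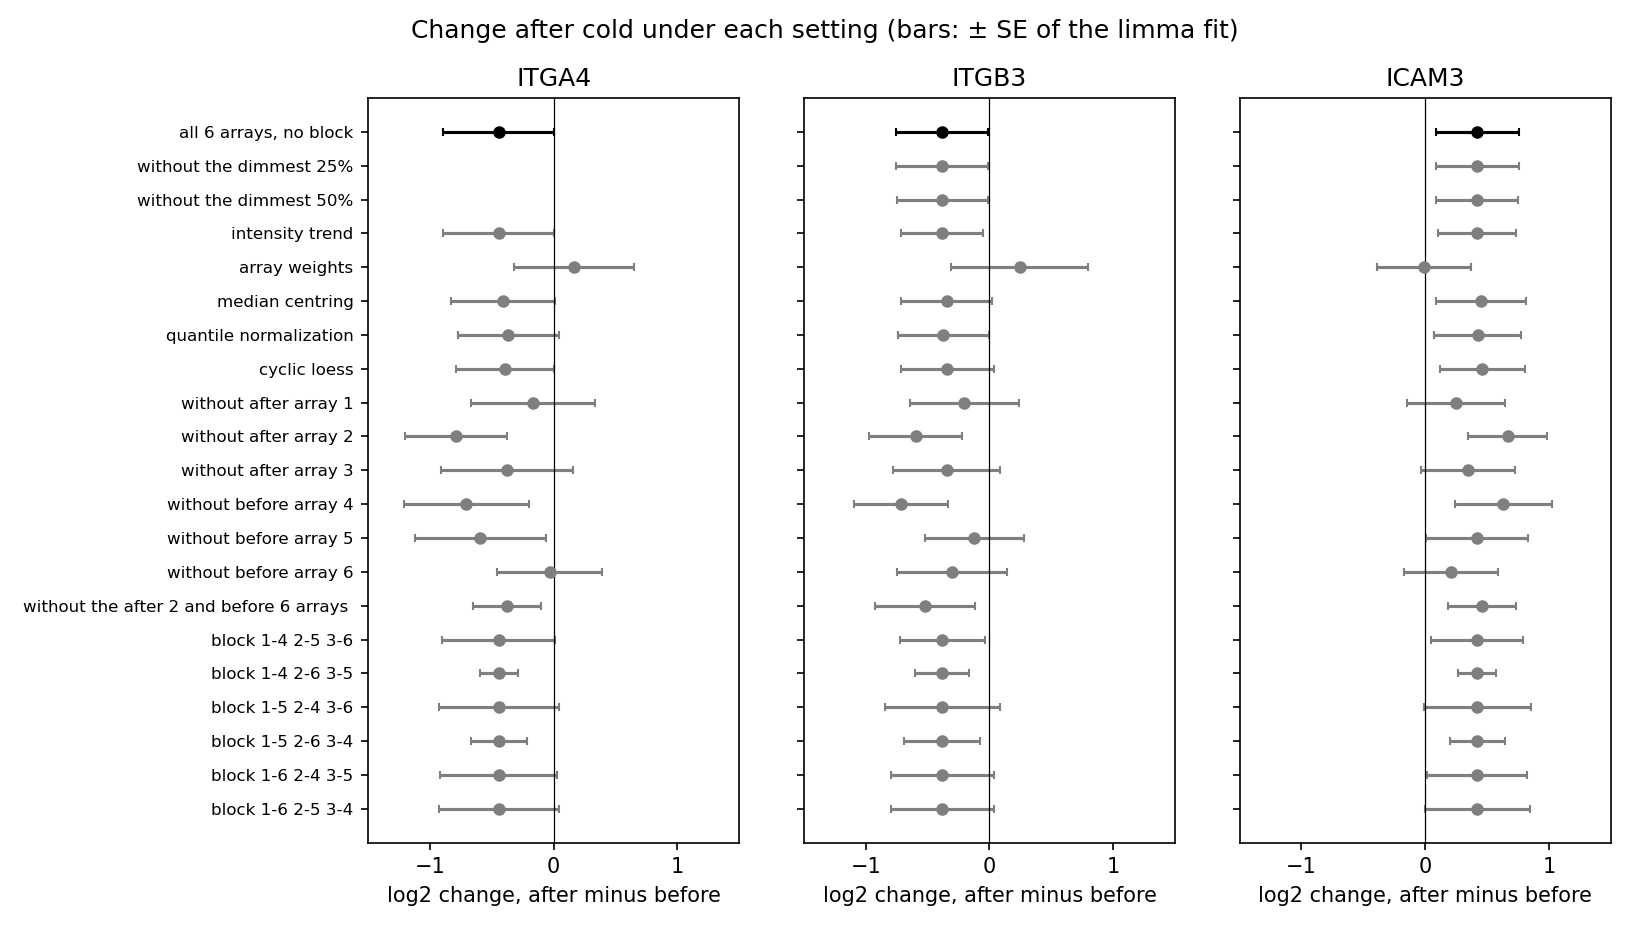
Log2 change after minus before cold for each gene under every setting run, with bars of ± SE from limma. The fit to all 6 arrays without a block is in black, and the blocks name the samples matched as animals. ITGA4 and ITGB3 lie left of 0 and ICAM3 right of 0 in all settings but array weights, and ITGA4 has no value without the dimmest probe sets because it is one of them.

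The chains that pair with alpha4 had different patterns over the arrays. ITGB1, the beta1 chain, was at 10.73, 11.71 and 10.35 after cold, against 11.30, 10.88 and 11.75 before, with a difference of -0.38 ± 0.40 (SE). It shared with ITGA4 its 2 highest arrays, after 2 and before 6. ITGB7, the beta7 chain, was at 11.07, 10.26 and 10.84 after cold, against 10.87, 10.55 and 10.36 before, with a difference of 0.13 ± 0.30. Its 2 lowest arrays were after 2 and before 6, the reverse of ITGA4. Of the ligands of alpha4 integrins, FN1, which encodes fibronectin, differed by 0.14 ± 0.39, and VCAM1 and MADCAM1 are not analysed here. None of these genes passed the threshold (limma, adjusted p = 1.00 each).

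ITGAV, the alphaV chain that pairs with beta3, was at 4.91, 6.55 and 5.03 after cold, against 5.53, 5.56 and 6.30 before. Its difference was -0.30 ± 0.47 (SE), and like ITGA4 it was highest on after 2 and before 6. The integrin that binds ICAM3 differed less between groups. ITGAL was at 9.98, 9.58 and 10.17 after cold, against 10.03, 10.02 and 9.52 before, a difference of 0.05 ± 0.28, with a dimmer probe set at 0.25 ± 0.29. ITGB2, the beta2 chain shared by the leukocyte integrins, was at 11.82, 11.57 and 12.12 after cold, against 11.74, 11.93 and 11.64 before, a difference of 0.07 ± 0.26. ICAM1, another ligand of the same integrin, differed by 0.13 ± 0.43. CD209 is not analysed here.

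**Figure D3:**
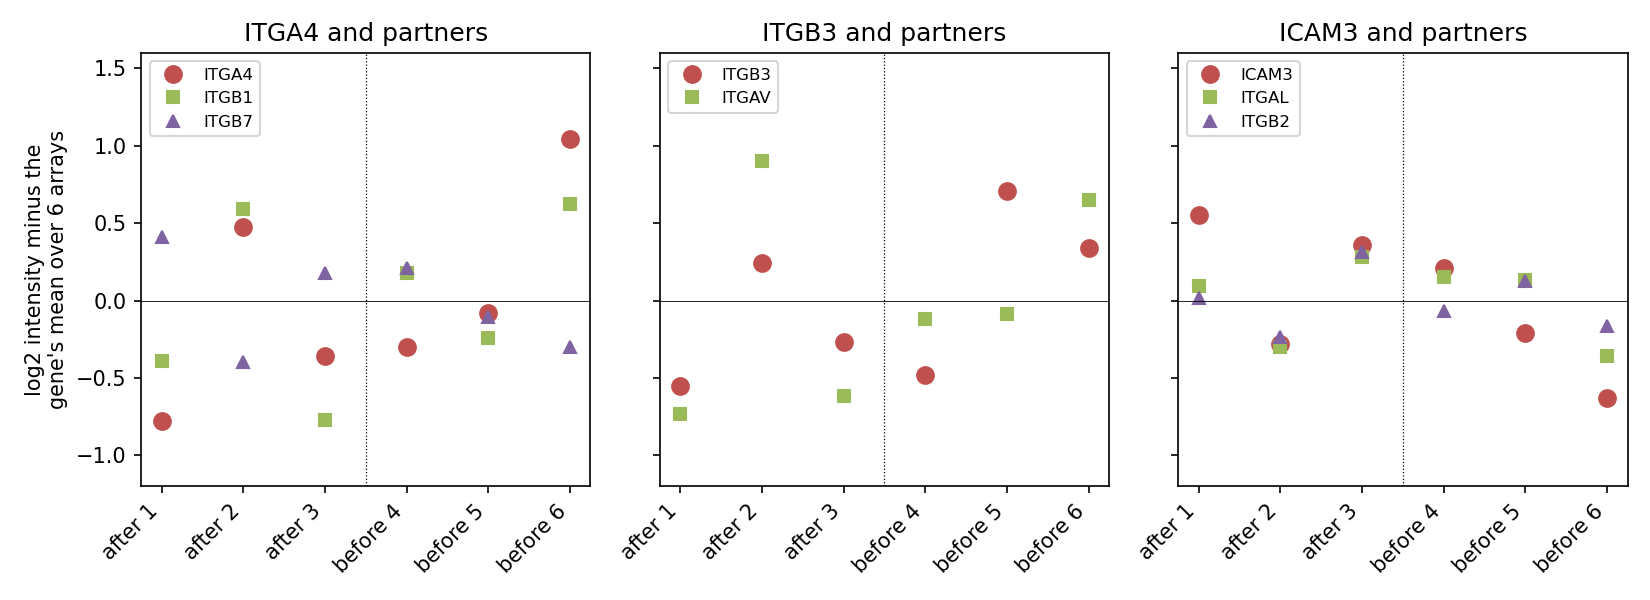
Log2 intensity of each gene minus its own mean over the 6 arrays, for ITGA4 with ITGB1 and ITGB7, ITGB3 with ITGAV, and ICAM3 with ITGAL and ITGB2. Arrays after cold are left of the dotted line. On after 2 and before 6, ITGA4, ITGB1, ITGB3 and ITGAV are above their means and ITGB7, ICAM3, ITGAL and ITGB2 below theirs.

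Other adhesion genes were spread around no change. Of 100 listed genes 51 were measured, 31 with a higher and 20 with a lower mean after cold and a median change of 0.06, beside a median of 0.05 over the 6337 named genes. None passed the threshold in either direction, none had an unadjusted p under 0.05, and the groups overlapped for all 51, each taken by its brightest probe set. These outcomes were also the usual ones among the 6337 named genes. Of those, 34 had an unadjusted p under 0.05 in limma, 318 (5.02%) had groups without overlap, and 3566 had a higher mean after cold. Integrin alpha chains were split into 4 higher and 5 lower, with a median of -0.02. Within that list ITGA4 had the lowest value, ITGAV and ITGAE (-0.21 ± 0.25, SE) followed, and ITGA3 (0.17 ± 0.29) and ITGA5 (0.12 ± 0.28) were the highest. ITGAE is the alpha chain of an integrin that binds E-cadherin, and ITGA5 that of the main fibronectin receptor. Integrin beta chains had 3 higher and 2 lower means, with ITGB3 and ITGB1 the lower ones.

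Immunoglobulin-family ligands and counter-receptors had 7 higher and 4 lower means among 11 measured, with a median of 0.06. One of the lower ones, ITGB1BP1, is an adaptor that stands in this list and in that of adaptors, and without it 7 were higher and 3 lower. CD99, counted among the higher ones, is not of the immunoglobulin family either. Its brighter probe set was at 0.06 ± 0.38 (SE) and its other one at -0.02 ± 0.33, so their signs differed. ICAM3 was the highest and JAM3, a junction adhesion molecule, came next at 0.18 ± 0.36 (SE). CD58, the ligand of the T cell receptor CD2, was the lowest at -0.32 ± 0.25, with its other probe sets at -0.46 ± 0.28 and -0.17 ± 0.27. Among selectins, their ligands and CD44, 3 of 4 had higher means, from SELPLG, the selectin ligand PSGL-1, at -0.07 ± 0.39 to GLG1, a ligand of E-selectin, at 0.21 ± 0.26. A dimmer GLG1 probe set was at 0.41 ± 0.25 without overlap between the groups. A second SELPLG probe set was at 0.05 ± 0.33, so the sign differed between its probe sets.

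Integrin activation and adaptor proteins had 12 higher and 8 lower means among 20, with a median of 0.16. The list holds activators, genes that restrain integrins and genes downstream of them. It also counts ADAP1, at 0.23 ± 0.28 (SE), which is not the integrin adaptor ADAP that FYB1 encodes. DOK1, an adaptor that binds integrin beta tails and restrains activation, had the highest difference at 0.54 ± 0.36 (SE), followed by the kinase SYK at 0.28 ± 0.31. RAP1B, a small GTPase that activates integrins in platelets and leukocytes, had the lowest at -0.45 ± 0.31, followed by the adaptor FYB1 at -0.43 ± 0.56. Talin (TLN1) and kindlin-3 (FERMT3), which bind the beta tails directly, were at -0.01 ± 0.35 and 0.16 ± 0.33. The extracellular ligands had 3 measured genes of 17, with the laminin chain LAMC1 at 0.19 ± 0.29 and thrombospondin (THBS1) at -0.08 ± 0.36.

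**Figure D4:**
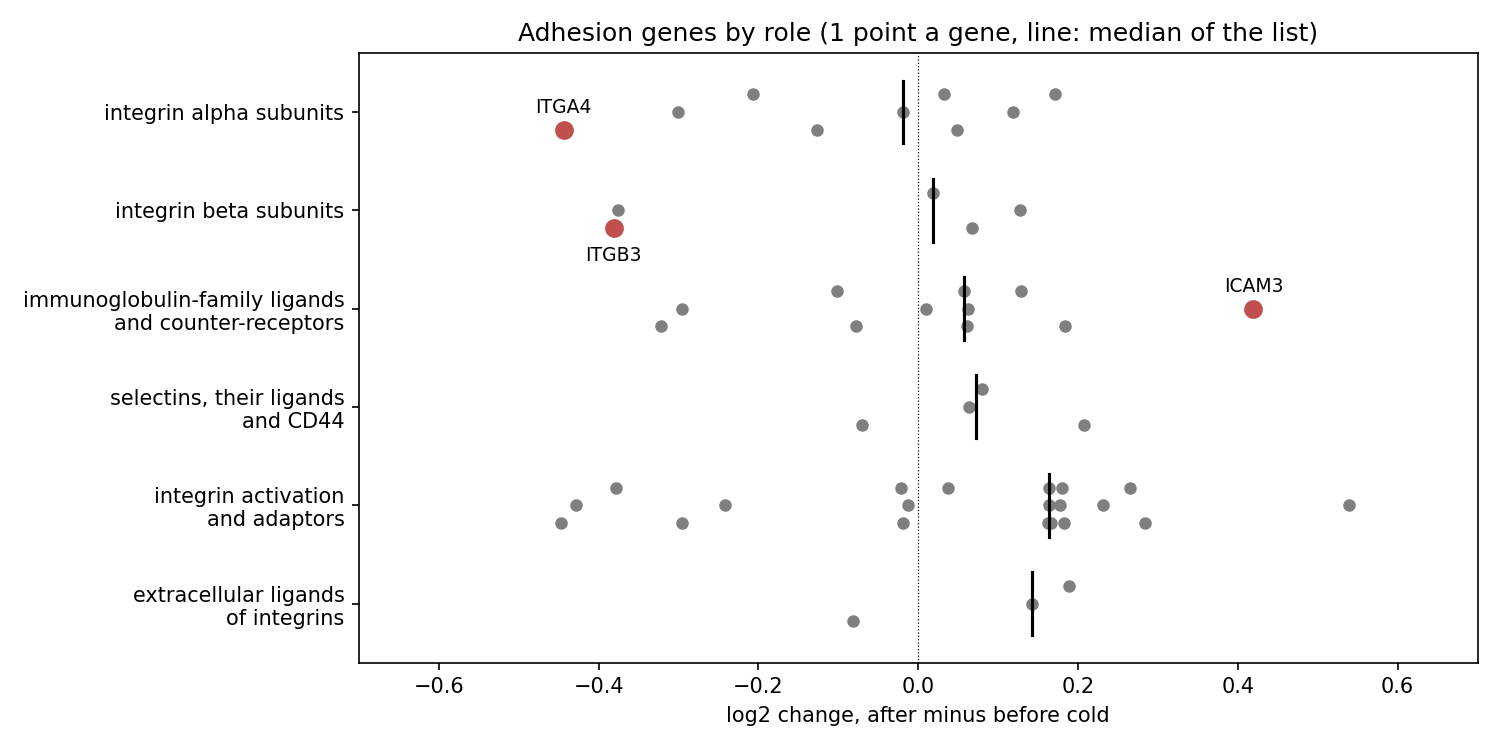
Log2 change after minus before cold of 51 adhesion genes, grouped by role, with 1 point for each gene of a list. ITGB1BP1 is drawn in both lists that hold it. The median of each list is a black line, and the members are in red. ITGA4 and ITGB3 are the lowest of their lists and ICAM3 the highest of its list. Members and lists were chosen with earlier results of these data known, so these places are description only. No point passed the threshold.

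Markers of the cells that carry these molecules are given as measured facts, and their part in the member values was not tested. T cell markers, 13 measured of 15, had 7 higher and 6 lower means, and their median deviation was 0.32, -0.05 and 0.0016 on the arrays after cold and 0.35, -0.35 and -0.12 before. Their summed intensity was 18306 to 23575 after cold and 16473 to 25744 before. NK and cytotoxic markers, 8 of 11, had 6 higher and 2 lower, with deviations of 0.61, -0.45 and 0.05 after cold and 0.20, 0.11 and -0.60 before. Their summed intensity was 2541 to 5408 after cold and 2507 to 4650 before. By median and sum, this list was highest on after 1 and lowest on before 6, like ICAM3 and the reverse of ITGA4. Of its genes, NCR1, KLRD1, NKG7 and GNLY had both extremes there. The others did not, with GZMB highest on before 6, FCGR3A highest on before 5, KLRB1 lowest on before 5 and PRF1 lowest on after 2. Over the 6 arrays, the NK and cytotoxic median deviation correlated at 0.88 with ICAM3 and -0.96 with ITGA4. That of the T cell list correlated at -0.95 with ITGB3. Such likeness was not particular to these lists. Of 6336 other genes, 6.03% correlated over 0.9 with ICAM3, 7.84% under -0.9 with ITGA4 and 1.56% under -0.9 with ITGB3.

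Monocyte markers, 5 measured of 10, had 2 higher and 3 lower means, with a summed intensity of 1175 to 1945 after cold and 1113 to 1982 before. Genes listed as eosinophil and basophil markers, 4 of 12, all had lower means. Their summed intensity was 2017 to 4370 after cold and 3912 to 5152 before. RNASE6, the brightest of the 4 on every array, weighs most in this sum. It is a myeloid defence gene that is not particular to these cells. The lowest sum was that of after 3, where ALOX15 and RNASE6 were at their lowest. CCR3 was lowest on before 6 and FCER1A on after 2. Neutrophil markers, 5 of 12, all had higher means, at 19041 to 25122 after cold and 16224 to 24747 before. Their differences were small, from 0.07 to 0.22 with SEs of 0.26 to 0.57. B cell markers, 5 of 10, had 4 higher means, at 5741 to 6901 after cold and 5716 to 6748 before, and red cell markers, 3 of 11, all had higher means, at 4359 to 5127 after cold and 3888 to 5071 before. No marker of any of these lists passed the threshold (limma), and the groups did not overlap for MSR1 and GZMB, lower after cold, and for CXCR5 and POU2AF1, higher after cold. These 4 are 7.02% of the 57 marker genes measured, beside 5.02% of the 6337 named genes. MSR1 had an unadjusted p of 0.0465.

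The genes whose pattern over the 6 arrays was most like each member are named by Pearson correlation, as a description. The 6 arrays come from 3 animals and share the direction described above, so these correlations are not independent evidence of anything the genes share. ITGA4 was most like NEK6 (0.990), TMEM106A (0.981), OIP5 (0.981), TAF9B (0.976) and XRN2 (0.969). ITGB3 was most like IL7 (0.977), C1QBP (0.970), GNB4 (0.965), CFAP97 (0.950) and RWDD4 (0.947). ICAM3 was most like LENG1 (0.993), WDR13 (0.992), RASSF1 (0.989), LY6G6F (0.989) and SLC25A38 (0.989). Of 6336 other genes, 148 correlated with ITGA4 over 0.9 and 497 under -0.9. For ITGB3 these counts were 23 and 99, and for ICAM3 382 and 147. No adhesion gene of the lists was among the 5 nearest of any member.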

How the data were processed

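RNA was labelled with biotin and read on a single-colour Affymetrix bovine array. The authors deposited linear intensities, 1 per probe set and array. The submitters' processing notes name GCOS and RMA, without versions, and neither filters nor a genome build. The table had 12763 probe sets. Through the platform annotation 8125 had 1 symbol, 56 several and 4582 none. Of the 8125, 8109 matched a gene of the RefSeq table of ARS-UCD2.0, and 0 symbols changed. The lists used the brightest probe set of each gene.

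Log2 intensities, with no further normalization, pseudocount or filter, were compared (after minus before cold) by limma 3.58.1 under R 4.3.3, two-sided, without a block, with Benjamini-Hochberg adjustment over all probe sets and a threshold of 0.05. The number of arrays limits the precision. The p-values treat the 6 arrays as separate, although pairs share an animal. The fit was tested on simulated data with the mean and within-group spread of each probe set. Every value was drawn independently, so neither the direction shared across probe sets nor the shared animals were simulated. Recovery and false calls in these data may therefore differ from those of the simulation. At an adjusted p under 0.05 it recovered 5 of 67 changes (7.46%) of 1 log2 unit, 33 of 67 (49.3%) of 2 and 56 of 66 (84.8%) of 3, with 4 false calls. Changes as small as those of the members were not simulated. The lack of calls therefore does not show that such changes were absent. Other settings left out the dimmest 25% or 50% of probe sets, or used an intensity trend, array weights, 3 normalizations, fewer arrays or each matching of samples as a block. The members and lists were chosen with earlier results of these data known. The naming rule took the members, their known partners, up to 2 genes per direction of each adhesion list and the 5 genes most like each member. Other genes, such as TLN1, FERMT3, ICAM1 and PF4, were named after their values were seen.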

Additional observations from a re-analysis of the deposited data

How the results depend on the processing

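No paired analysis was possible because the labels give the groups no shared sample numbers, so each matching was run as a replicate block. No setting gave any probe set an adjusted p under 0.05 in limma. Before adjustment, the count of p under 0.05 was 63, and 662 when arrays were weighted. It was 27 once the dimmest 50% were left out. Normalizing gave 109 (median centring), 102 (cyclic loess) and 100 (quantile). Dropping after 2 and before 6 gave 1234, and dropping each array in turn gave 5 (after 3) to 1787 (after 2). Blocks gave 33 (1-4, 2-5, 3-6), 1168 (1-4, 2-6, 3-5), 24 (1-5, 2-4, 3-6) and 656 (1-5, 2-6, 3-4), and the other two stayed within 1.5 times. The cause was not tested.

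The blocks, the intensity trend and the dim filters cannot move a difference. In the 11 settings that can, each member kept its direction in 10, and adjusted p-values over all settings were 0.385 to 1.00. The exception was array weights, with 0.16 for ITGA4, 0.24 for ITGB3 and -0.0083 for ICAM3. That fit gave after 1 a weight of 0.0019 and before 4 one of 30.7, and its estimate stopped before convergence. Leaving out each array gave -0.79 to -0.03 for ITGA4, -0.72 to -0.12 for ITGB3 and 0.21 to 0.67 for ICAM3. Both dim filters left out ITGA4 itself. Limits of dim signal were not tested, for lack of a background measure.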

Other observations

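ITGB5, which encodes another partner of the alphaV chain, was the steadiest of the measured integrin beta chains, with log2 intensities of 13.77, 13.72 and 13.72 after cold and 13.73, 13.73 and 13.70 before. These values lie close to the highest intensity of each array, between 13.89 and 14.15. Whether the probe set was near saturation was not tested. ITGAM, the alpha chain of the Mac-1 integrin of myeloid cells, had only 2.42, 2.90 and 2.96 after cold and 2.59, 3.02 and 3.05 before, close to the lowest intensities of the arrays (1.97 to 2.21). The brighter probe set of its relative ITGAD was at 10.02 to 10.45 after cold and 10.14 to 10.24 before. A dimmer ITGAD probe set was at 5.61 to 6.13 after cold and 5.52 to 5.78 before, so the level of ITGAD depends on the probe set.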
